A study of Mus musculus with 5 samples.

Results

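The Sonic hedgehog pathway was followed through 9 genes, chosen by name for their place in the pathway, with earlier results of these data known. These were the ligand Shh, the receptor Ptch1, the signal transducer Smo, the coreceptors Boc and Gas1 and the inhibitor Hhip. The transcription factors Gli1, Gli2 and Gli3 completed the list. All 9 were found among the 19893 genes that the probes of the array could be assigned to, and they were represented by 13 of the 26300 probes with a gene symbol. Their mRNA was measured in wild type mouse embryonic stem cells (ES), which can form every tissue of the embryo, and at 4 later points of their differentiation to motor neurons (MNs). All samples came from male cells and each was hybridized to 1 one-colour array, so that no spread between replicates exists and no test between time points was possible. Day2 was embryoid bodies (EBs, floating aggregates of differentiating ES cells) 8 h after the start of retinoic acid (RA), Day3 was EBs after 1 day of RA, and Day4 was EBs after 2 days of RA. Day7 followed 5 days of RA, and its source was labelled MN while its tissue was labelled embryoid bodies. The labels give RA together with Shh as the treatment between days 2 and 5, although they count 5 days of RA for Day7, whereas the paper describes the smoothened agonist SAG in place of Shh. No sorting step is named in the labels, so each array holds the RNA of a mixed culture, in which fewer cells of a type and less RNA per cell cannot be told apart.

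Shh is a secreted protein that spreads from the notochord and floor plate and patterns the ventral neural tube. Without it, the receptor Ptch1 holds the membrane protein Smo inactive, and Gli proteins, Gli3 above all, are cut to repressors in the primary cilium. Binding of Shh to Ptch1, helped by Boc and Gas1, releases Smo, which SAG activates directly, and Gli2 and then Gli1 switch on target genes. Ptch1, Hhip and Gli1 are themselves classical targets, and the first pair of these dampens the signal by binding the ligand.

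Values are log2 signals after quantile normalization, which gives all arrays the same distribution. A level is compared between arrays for 1 probe, not between probes. Exceptions are the summed signals of marker lists, which add different probes, and the choice of the brightest probe or gene. A gene was called raised or lowered when it changed at least 2-fold, that is by 1 on the log2 scale. This is a rule of size and not a test. Where a probe was not well above background on an array, a floor was used in its place, the dimmest signal of any probe that passed there or the probe's own value if that was brighter, and the change is then written as at least that size. Of all probes, between 57.5% and 65.7% were well above background on the ES, Day3, Day4 and Day7 arrays and 86.7% on Day2. ERCC probes, which match no mouse sequence, passed this limit in 4.17% to 9.38% of cases on those arrays and in 66.7% on Day2, so dim values on Day2 carry less weight. Day7 was the 1 array on the second slide, so that in any comparison with it an effect of the slide cannot be told apart from that of the time point. For the member probes with a single spot that was well above background, the scanner software gave an error of at most 13.1% of the signal. For repeated probes that were well above background, the median SD between spots was 0.05 to 0.10 on the log2 scale, depending on the array. Both cover error within an array only.

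Sequence upstream of the transcription start was at hand for Ptch1, Smo, Gas1, Gli2, Gli3 and Hhip, 6 of the 9 genes, in a RefSeq promoter table of the assembly GRCm38.p6. It is shown for the receptor Ptch1, the inhibitor Hhip and Gli2, which were all raised on Day4, because Gli proteins bind DNA at a known sequence and Ptch1 and Hhip are among their targets. Each run holds the 250 bases before the start, and capitals mark the letters CCACCC, the core of the Gli site, read on either strand. Ptch1 lies on the minus strand with its run at chr13:63565736-63565985, Hhip on the minus strand at chr8:80058009-80058258, and Gli2 on the minus strand at chr1:119053620-119053869.
Ptch1: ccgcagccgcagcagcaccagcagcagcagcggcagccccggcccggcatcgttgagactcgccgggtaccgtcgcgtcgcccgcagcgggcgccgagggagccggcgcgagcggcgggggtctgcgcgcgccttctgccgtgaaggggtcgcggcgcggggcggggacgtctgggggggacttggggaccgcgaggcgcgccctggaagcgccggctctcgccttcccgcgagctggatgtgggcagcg
Hhip: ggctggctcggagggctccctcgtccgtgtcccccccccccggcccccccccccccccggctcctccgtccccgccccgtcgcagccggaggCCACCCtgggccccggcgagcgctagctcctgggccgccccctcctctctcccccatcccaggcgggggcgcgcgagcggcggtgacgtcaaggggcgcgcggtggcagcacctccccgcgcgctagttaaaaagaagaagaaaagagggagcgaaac
Gli2: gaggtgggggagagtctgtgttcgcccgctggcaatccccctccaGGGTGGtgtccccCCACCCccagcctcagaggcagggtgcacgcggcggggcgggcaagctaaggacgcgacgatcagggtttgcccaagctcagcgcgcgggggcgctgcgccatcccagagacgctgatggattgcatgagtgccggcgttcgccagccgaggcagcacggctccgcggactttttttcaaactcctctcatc
The core was absent from the Ptch1 and Gas1 runs, occurred once each upstream of Smo, Gli3 and Hhip, and 2 times upstream of Gli2. It was thus found in 4 of the 6 runs, while 28.1% of all 32851 promoters in the table held it in the same window. The full consensus GACCACCCA, which contains the core, was found in 0 of the 6 runs and in 0.225% of all promoters. A match describes letters only, and a run without one says nothing about sites elsewhere in the gene.

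Of the 8 genes other than Shh, 7 were raised by Day3 and all 8 were highest on Day4, whereas Shh itself was well above background on Day7 alone, when the Gli factors were low. From ES to Day2, 8 members had a value and 1 of them, Hhip, was raised, against 10.7% of all genes, while 0 were lowered, against 11.3%. The median change of the members was 0.44 on the log2 scale and that of all genes was 0. From ES to Day3, 7 of 8 members were raised against 15.6% of all genes, and 0 were lowered against 10.2%, with a median change of 1.34 for the members and 0.06 for all genes. By Day4 the same 7 genes, all but Gli1, were raised, against 17.0% of all genes, and 0 were lowered, against 14.4%. The members' median change had then reached 1.80, compared with 0.05 over all genes. From ES to Day7, 4 of 9 were raised (Shh, Boc, Gas1 and Hhip) against 24.8% of all genes, and 3 were lowered (Gli1, Gli2 and Gli3) against 24.4%. Between Day4 and Day7, 1 member was raised, Shh, against 18.1% of all genes, and 6 were lowered, all but Shh, Smo and Hhip, also against 18.1%. The median change of the members over this step was -2.10, and that of all genes was -0.12. Without normalization 3 members were raised on Day3 and 4 on Day4 relative to ES, when the median of all genes had changed by -1.07 at Day4. With arrays aligned at their 75th percentile, as in the deposited log2 values, 5 were raised on Day3. Smo and Gli3 then fell short of 2-fold, at 0.93 and 0.94. With normexp background correction 6 were raised on Day3, and Ptch1 fell short at 0.90.

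All 8 members that were well above background on every array had their highest value on Day4. Of the 13468 genes well above background on every array, 14.7% had their highest value there. This count, which was added after the values were seen, was also 8 of 8 when arrays were aligned at their 75th percentile instead (12.4% of all genes) and after normexp background correction (14.9% of all genes). Without any normalization it was 3 of 8, Ptch1, Boc and Gas1, against 0.861% of all genes, and the Day4 array was then the dimmest for 71.9% of genes. The lowest values of the members lay on the ES array for 4 genes, against 22.9% of all genes, and on Day7 for the other 4, against 39.5%. Markers of other cells also moved over these steps, not all in the same direction. Of 9 notochord and mesendoderm genes, 7 had a value from ES to Day4. Of these, 4 were raised and 1 lowered, against 17.0% and 14.4% of all genes. From Day4 to Day7, 6 had a value, and 1 was raised and 3 lowered, against 18.1% each way. Gata6, a regulator of endoderm, rose 19.2-fold to Day4 and then fell 14.4-fold to Day7, and Sox17 rose 5.33-fold and fell at least 16.2-fold. Other genes of this list went elsewhere, since T fell at least 8.90-fold to Day4 and Foxa1 rose 12.3-fold from Day4 to Day7. Of the 4 neural progenitor genes Sox1, Nes, Pax6 and Hes5, 2 were raised at Day4 and 0 lowered, against 17.0% and 14.4% of all genes. Hes5, a target of Notch, was then 89.7-fold above ES and Pax6 11.4-fold. From Day4 to Day7 0 of the 4 were raised and 1 was lowered, Pax6 by 34.5-fold, against 18.1% each way. The median change of this list over that step was 0.10. The part of these marker genes in the course of the members was not tested.

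**Figure D1:**
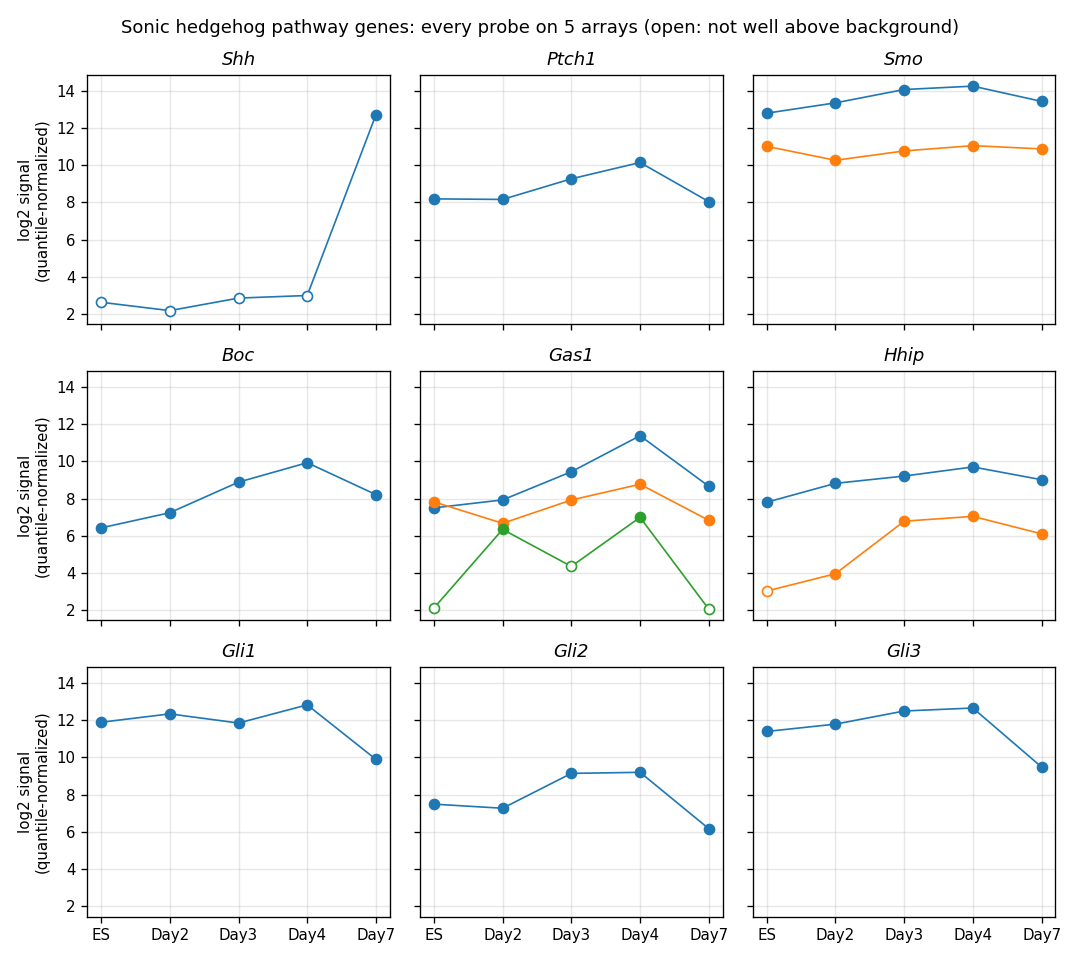
Quantile-normalized log2 signal (vertical axes) of every probe of the 9 genes on the ES, Day2, Day3, Day4 and Day7 arrays (horizontal axes), 1 line per probe, blue for the probe that stands for the gene, with open points not well above background. Shh is filled on Day7 only, at 12.71, and the blue lines of the other 8 genes are highest on Day4.

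The ligand Shh had 1 probe, printed in 10 places on the array. Its log2 signal was 12.71 on Day7, after 2.65 in ES, 2.20 on Day2, 2.87 on Day3 and 3.01 on Day4. Only on Day7 was it well above background. Before normalization, its 10 spots on that array gave a processed signal between 8253 and 9248 with a median of 8658, and all 10 were well above background. On the other arrays the median of its spots was 7.58 in ES, 4.59 on Day2, 4.95 on Day3 and 3.31 on Day4, and 0 spots were well above background. On Day3 and Day4 these medians were taken over 9 spots, because 1 was marked as an outlier on each. The rise was at least 369-fold from ES to Day7 and at least 403-fold from Day4 to Day7, or at least 8.53 and 8.65 on the log2 scale. These bounds ran from 6.17 to 8.92 and from 6.40 to 9.98 over the alternatives that set a floor. The earlier arrays give no order among themselves, since values below background have none.

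The Day7 culture, which carried Shh, was also high in floor plate and in motor neuron transcripts. Of 4 floor plate genes (Foxa2, Spon1, Ntn1 and Ferd3l), 3 were well above background in ES, on Day3 and on Day4, and all 4 on Day2 and Day7. Their summed signal, in which the brightest probes weigh most, was on the log2 scale 8.97 in ES, then 10.40, 11.17 and 12.25 on Day2, Day3 and Day4 and 15.89 on Day7. The step to Day2 was that of Foxa2 and Ferd3l, at 9.55 and 8.57 on Day2, while Ntn1 fell from 7.75 in ES to 6.53. From Day2 to Day4 the course was that of Foxa2 and Ntn1. Spon1 read 7.49 in ES, 6.09 on Day3 and 6.64 on Day4, and Ferd3l was not well above background on Day3 or Day4. Foxa2, the transcription factor that specifies the floor plate and switches on Shh there, rose 186-fold from ES to Day7, and all 4 genes were raised, against 24.8% of all genes, with a median change of 6.72.

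Motor neurons can express Shh too, and the 6 genes of their list (Isl1, Isl2, Lhx3, Chat, Slc18a3 and Slc5a7) were all raised from ES to Day7, against 24.8% of all genes, with a median change of 5.98. Of these, 5 were already well above background in ES, and their summed signal lay between 9.98 and 11.10 on the first 4 arrays and at 16.21 on Day7, where the brightest gene, Slc18a3, alone read 15.54. Both lists thus moved with Shh between Day4 and Day7, and which cells carried the Shh transcript was not tested. The motor neuron label of the Day7 source is met by these genes, with Chat, the acetylcholine-synthesizing enzyme, at 12.21 against 4.25 in ES, where it was not well above background. The notochord, the other embryonic source of Shh, is marked in the list by T, Noto and Chrd, and the rest are mostly genes of endoderm. Of these 9 notochord and mesendoderm genes, 4 were well above background on Day7, and T, Noto, Sox17, Afp and Ttr were not. From ES to Day7, 6 genes of that list had a value, and 1 was raised and 4 lowered, against 24.8% and 24.4% of all genes. The raised gene was Foxa1, which the floor plate also expresses, at 12.97 on Day7. The pluripotency genes Pou5f1, Zfp42, Esrrb and Klf4 were lowered from ES to Day7, and with Nanog the median change of this list was -3.63.

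**Figure D2:**
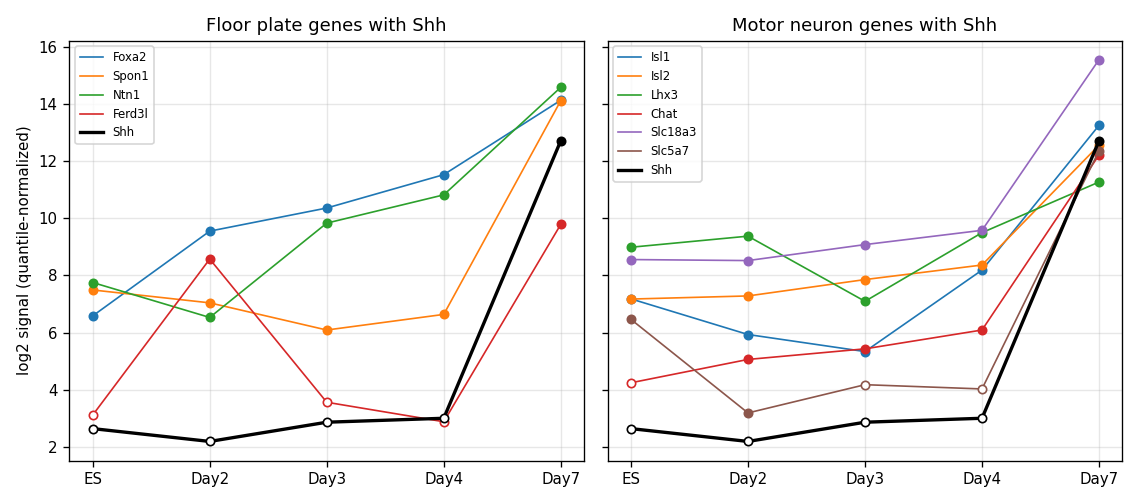
Quantile-normalized log2 signal (vertical axis) of Shh in black with 4 floor plate genes on the left and 6 motor neuron genes on the right, on the 5 arrays (horizontal axis), with open points not well above background; heights of different genes are not comparable. Shh and all 10 other genes are higher on Day7 than on Day4.

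Ptch1 and Smo stand at the head of the pathway inside the receiving cell. The log2 signal of Ptch1 was 8.19 in ES and 8.16 on Day2, then 9.27 on Day3 and 10.15 on Day4, and 8.05 on Day7. It was higher on Day3 and Day4 than on the other 3 arrays. The rise was 2.11-fold at Day3 and 3.87-fold at Day4 relative to ES, and the level then dropped 4.28-fold to Day7. Without normalization the change to Day3 was 0.61 and that from Day4 to Day7 was -0.83, and with normexp the change to Day3 was 0.90, all short of 2-fold. That from ES to Day4 was 1.05 without normalization. A change of -0.15 between ES and Day7 remained, and it lay between -0.15 and 0.22 over all the alternatives tried. Because Ptch1 is a target as well as the receptor of the pathway, its transcript is a common readout of signalling.

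Smo was measured by 2 probes that disagreed. The brighter probe read 12.79, 13.34, 14.06, 14.24 and 13.42 from ES to Day7, a rise of 2.73-fold at Day4, with Day7 1.76-fold lower than Day4. The second probe read 11.01, 10.26, 10.77, 11.05 and 10.87, and the furthest it lay from ES was a change of -0.75 on Day2. At Day4 it stood 0.04 above ES. Smo transcripts were therefore well above background on all 5 arrays by both probes, and a rise of Smo rests on 1 probe. Without normalization, that probe too stood only 0.09 higher at Day4 than in ES.

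The coreceptors Boc and Gas1, which present the ligand to Ptch1, showed the largest rises of the members by Day4, by the probe that stands for each gene. Boc, a membrane protein of the immunoglobulin family, read 6.43, 7.24, 8.88 and 9.92 from ES to Day4 and 8.21 on Day7. It climbed at each step to Day4, to 5.48-fold over ES on Day3 and 11.3-fold on Day4, and on Day7 it was still 3.45-fold above ES after a 3.27-fold fall. These changes kept their direction under every alternative, with a range of 2.66 to 3.69 for ES to Day4 and of -1.78 to -0.43 for Day4 to Day7. The last value, without normalization, is short of 2-fold, and 4 members in place of 6 were then lowered over this step.

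Gas1, a membrane-anchored protein, was measured by 3 probes. The brightest read 7.50 in ES and 7.93, 9.44, 11.37 and 8.66 on the arrays from Day2 to Day7, a rise of 14.6-fold to Day4 and a fall of 6.54-fold from there to Day7. Its second probe read 7.82, 6.67, 7.92, 8.77 and 6.83. Relative to ES it changed by -1.15 at Day2, 0.10 at Day3, 0.94 at Day4 and -0.99 at Day7, where the brightest changed by 0.43, 1.94, 3.87 and 1.16. The third was well above background on Day2, at 6.34, and on Day4, at 6.99, but not on the other 3 arrays, and its rise was at least 4.49-fold to Day2 and at least 7.04-fold to Day4. All 3 probes were highest on Day4 and fell from Day4 to Day7, with changes of -2.71 and -1.93 and, for the third, a bound of -2.34. Before normalization, however, the processed signal of the third was 181 on Day2 and 70.7 on Day4. The calls of Gas1 as raised on Day3 and on Day7 rest on the brightest probe alone, and that on Day4 on the brightest and the third. For the brightest, the change to Day7 was 0.86 with normexp, short of 2-fold, and without normalization that to Day4 was 2.98 and that from Day4 to Day7 -1.39.

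Hhip, a membrane protein that binds hedgehog ligands and keeps them from Ptch1, was the 1 member past 2-fold on Day2. Its brighter probe read 7.80 in ES, 8.82 at Day2, 9.21 at Day3, 9.70 at Day4 and 9.01 at Day7. The change to Day2 was 2.02-fold, just past the rule, and was between 0.51 and 1.45 on the log2 scale over the alternatives. Boc passed 2-fold on Day2 as well, at 1.40 and 1.63, with the 75th percentile and without normalization, and so did Gas1 without normalization, at 1.04. With normexp or the mean over probes 0 members did. By Day4 Hhip was 3.71-fold above ES, and by Day7 2.31-fold. Without normalization its change from ES was 0.94 at Day3, short of 2-fold, and 1.01 at Day4, and with normexp that to Day7 was 0.94, also short of it. The second probe was not well above background in ES and read 3.97, 6.79, 7.04 and 6.11 on the later arrays. It rose at least 6.09-fold to Day3, at least 7.29-fold to Day4 and at least 3.81-fold to Day7, and gave no fold for Day2, where it did not exceed the floor of the ES array. From Day4 to Day7 the probes changed by -0.69 and -0.94, less than Ptch1, Boc, Gas1 and the Gli factors. Without normalization the brighter probe changed by 0.62 over this step, and the median of all genes by 1.06. Both feedback inhibitors, Ptch1 and Hhip, were thus raised on Day3 and Day4, but without normalization neither was raised on Day3.

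The Gli factors differed in their rise and shared their fall. Gli1, a pure activator that is made when the pathway is on, read 11.88 in ES, 12.33 at Day2, 11.84 at Day3, 12.81 at Day4 and 9.89 at Day7. It was well above background in ES and moved by less than 2-fold up to Day4, with a change of 0.93 from ES to Day4 and of 0.97 from Day3 to Day4. The direction from ES to Day4 depended on the scaling, since without normalization Gli1 changed by -0.32, while the median of all genes changed by -1.07. From Day2 to Day3 Gli1 fell under every alternative, with a range of -1.16 to -0.43. The change of -1.16, past 2-fold, was that without normalization. On Day7 Gli1 was 3.97-fold below ES and 7.58-fold below Day4.

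Gli2, the main activator in the receiving cell, read 7.49 in ES, 7.27 at Day2, 9.14 at Day3, 9.20 at Day4 and 6.17 at Day7. From Day2 to Day3 it changed 3.65-fold, and Day4 differed from Day3 by 0.06. Without normalization the change was 0.55 in the step to Day2, 0.65 in that to Day3 and -0.37 in that to Day4, so that no step up to Day4 then passed 2-fold. On Day7 it was 2.49-fold below ES and 8.12-fold below Day4. Gli3, the main repressor, read 11.39, 11.78, 12.48 and 12.64 from ES to Day4, a rise of 2.39-fold in steps of less than 2-fold, and 9.48 on Day7. Without normalization the change from ES to Day4 was 0.06 for Gli3 and 0.83 for Gli2, both short of 2-fold. The Day7 value of Gli3 was 3.75-fold below ES and 8.97-fold below Day4. All 3 Gli factors were lowered from ES to Day7 and from Day4 to Day7, and those falls kept their direction under every alternative. With normexp the change of Gli2 from ES to Day7 was -0.81, short of 2-fold, and 2 members in place of 3 were then lowered. The ranges from Day4 to Day7 were -2.93 to -1.53 for Gli1, -3.26 to -1.94 for Gli2 and -3.18 to -1.76 for Gli3.

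**Figure D3:**
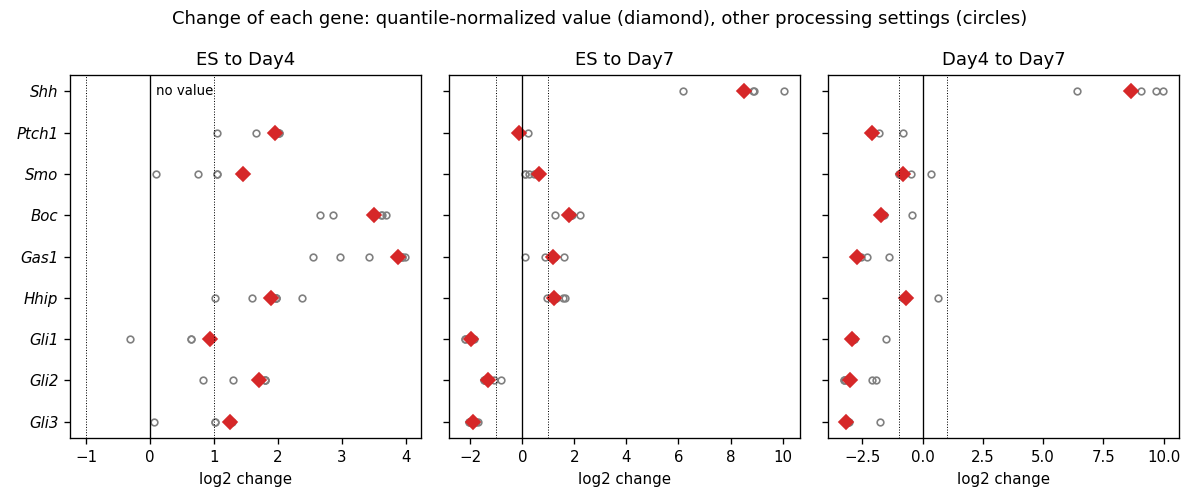
Log2 change (horizontal axes) of the 9 genes (vertical axis) from ES to Day4, ES to Day7 and Day4 to Day7, with the quantile-normalized value as a red diamond, the other processing settings as circles and dotted lines at 2-fold. Diamonds of 7 of 8 genes lie right of the 2-fold line at Day4, and those of 6 of 9 lie left of it between Day4 and Day7, where Shh is at 8.65.

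The other genes of the pathway were a list of 32 that were all matched to a probe. From ES to Day2, 2 were raised and 4 lowered, against 10.7% and 11.3% of all genes. At Day3 9 were raised and 1 lowered, against 15.6% and 10.2%. At Day4 9 were raised and 2 lowered, against 17.0% and 14.4%, with a median change of 0.49. The counts from ES to Day7, 10 raised and 7 lowered, were near the 24.8% and 24.4% of all genes. From Day4 to Day7 6 were raised and 11 lowered, against 18.1% each, with a median of -0.06. Without normalization these balances turned over, with 2 raised and 9 lowered at Day4 and 17 raised and 0 lowered from Day4 to Day7. Among all genes past 2-fold without normalization, 9.53% were raised at Day4 and 94.0% from Day4 to Day7. Of the 30 that were well above background on every array, 6 were highest on Day4 and 10 on Day7, near the 14.7% and 29.5% of all genes.

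The other ligands took other courses than Shh. Ihh, a ligand of cartilage and endoderm, was well above background on every array and read 6.41, 9.42, 7.36, 7.47 and 6.14 from ES to Day7, with its peak on Day2 at 8.04-fold over ES. Dhh, the ligand of the testis and peripheral nerve, was highest in ES at 7.65 and fell at least 7.99-fold to Day7, where it was not well above background. Among genes that prepare and release the ligand, Hhat, the enzyme that attaches palmitate to Shh, was 6.10-fold above ES on Day7, and Disp1, which exports it, 2.46-fold. Scube1, a secreted protein of the family that carries the lipid-modified ligand, was not well above background in ES and rose at least 61.9-fold to Day7. Hhat, Disp1, Scube1 and Scube3 were raised on Day7 relative to ES, 4 of the 5 genes of this group against 24.8% of all genes, and the fifth, Scube2, read 8.34 in ES and 7.70 on Day7.

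The receptors and coreceptors of the list included 2 that were lowered from Day4 to Day7 and 0 that were raised, and of the 14 transduction genes 6 were lowered and 4 raised, against 18.1% of all genes each way. Without normalization 0 of the 32 genes were lowered over this step. Cdon, the coreceptor most similar to Boc, was 2.61-fold above ES on Day4 and fell 2.40-fold to Day7. Sufu, which binds Gli proteins and holds them back, fell 2.37-fold from Day4 to Day7, and Kif7, the ciliary motor that regulates Gli processing, 3.47-fold. Evc and Evc2, partners of Smo at the base of the cilium, fell 2.45-fold and 3.90-fold. Prkaca and Prkacb, catalytic subunits of protein kinase A, went in opposite directions over the same step, with Prkaca lowered 2.03-fold and Prkacb raised 3.58-fold. Also raised were Spop, an adaptor of a ubiquitin ligase, 2.23-fold, Gsk3b 3.0-fold and Btrc 4.46-fold, a kinase and a ubiquitin ligase subunit that act in Gli3 processing as well as in many other routes. Of 8 cilium genes, Kif3a, a subunit of the kinesin that builds the cilium and also runs in axons, rose 7.20-fold from Day4 to Day7, Tulp3 fell 2.33-fold and 6 changed by less than 2-fold.

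**Figure D4:**
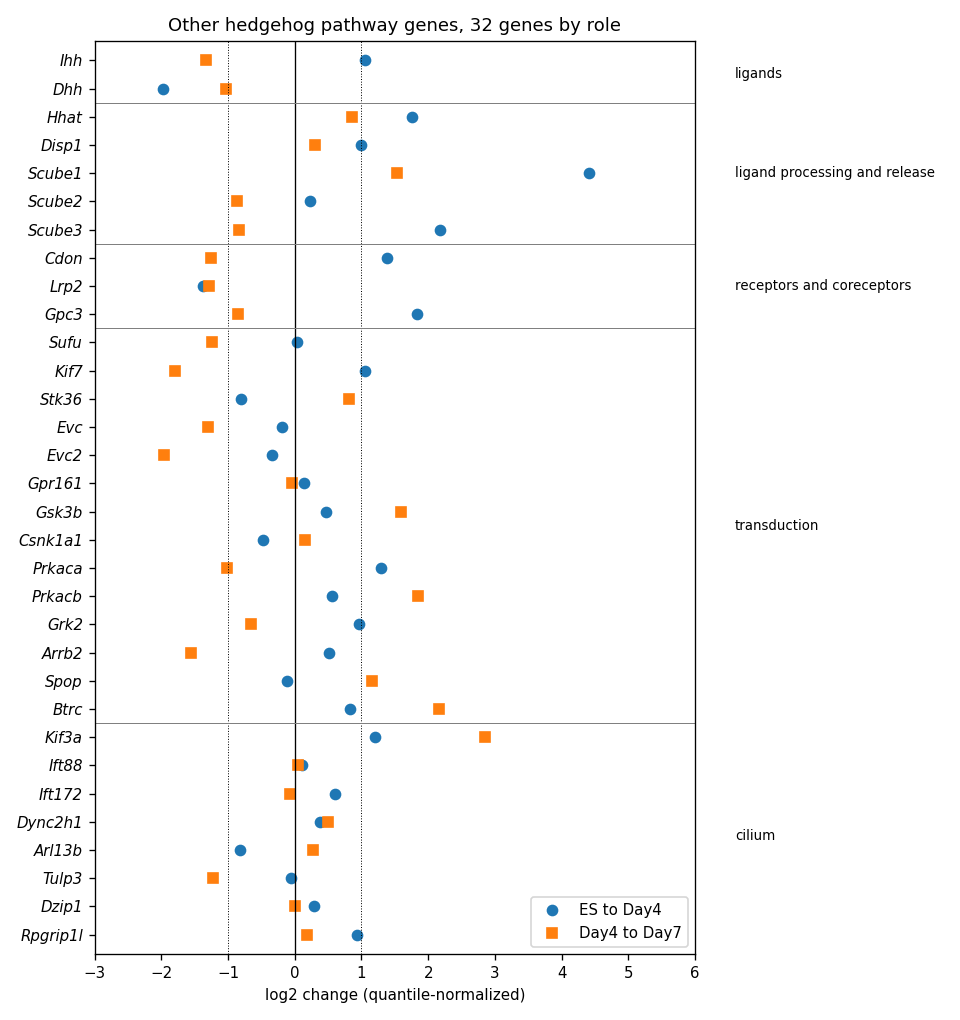
Log2 change (horizontal axis) of 32 other hedgehog pathway genes (vertical axis, grouped by role) from ES to Day4 (blue circles) and from Day4 to Day7 (orange squares), with dotted lines at 2-fold. Scube1 shows the largest rise to Day4, at least 4.41, and Kif3a the largest from Day4 to Day7, 2.85.

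A list of 6 genes that Shh signalling is known to switch on in the ventral neural tube moved in both directions at several steps. From ES to Day3, Foxa2, Nkx2-9 and Nkx6-1 were raised while Olig2 and Nkx2-2 were lowered, against 15.6% of all genes raised and 10.2% lowered. Of Foxa2, Nkx2-2, Nkx2-9, Nkx6-1, Nkx6-2 and Olig2, 5 were raised from ES to Day4 and 0 lowered, against 17.0% and 14.4% of all genes, with a median change of 3.64. From Day4 to Day7 Foxa2, Nkx2-2 and Nkx6-1 were raised, Olig2 and Nkx2-9 were lowered, and Nkx6-2 changed by less than 2-fold, against 18.1% of all genes in each direction. Of 5 genes that Shh holds down in the embryo (Pax6, Pax7, Irx3, Dbx1 and Dbx2), 4 had a value from ES to Day4 and all 4 were raised, against the same 17.0%. From Day4 to Day7, 3 of the 4 with a value were lowered and 1 raised, against 18.1% of all genes in each direction. The median change of the list over this step was -3.78. Pax6 fell from 10.28 to 5.17, Dbx2 5.47-fold and Dbx1 at least 107-fold, while Irx3 rose from 10.92 to 11.97.

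For Ptch1 and Gli1, the genes with the most similar course over the 5 arrays were found by the root mean square difference of their log2 values after subtraction of each gene's mean. For Shh no such genes are ranked, because 4 of its 5 values were not well above background and have no order. Closest to Ptch1 among 13460 genes were Spon2 with 0.10, Nab2 with 0.11 and Vps72 with 0.15, and closest to Gli1 were Cdkn2a with 0.17, F3 with 0.22 and Slc38a4 with 0.23. With 5 points per course these are descriptions of likeness and carry no test.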

How the data were processed

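Total RNA of 5 samples was labelled with Cy3 and hybridized to Agilent one-colour arrays, 1 per time point. The intensity values that the authors deposited are scanner output of Agilent Feature Extraction 10.5.1, per the submitters' processing notes, with background subtracted by the software. A deposited table of log2 values equalled, within 0.01 and for at least 99.99% of probes on each array, the log2 processed signal minus its 75th percentile on that array. All its columns belong to the 5 samples. Quantile normalization was taken as the main setting because the study names Quantile analysis for its array data.

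Control and outlier spots were removed, the log2 signals of repeated spots were averaged, and arrays were normalized in limma 3.58.1 (R 4.3.3), with further steps in Python 3.11.15, numpy 2.4.6 and pandas 2.3.3 and plots in matplotlib 3.10.9. Symbols came from RefSeq accessions of GRCm38.p6, used for names and promoters only, since an earlier assembly underlies the array design. Each gene was represented by its brightest probe on average. Genes below background in both arrays of a comparison had no value, and those whose brighter side did not exceed the floor entered medians as 0. The steps were tested on simulated data. With 1 array per time point, no p-value or SD between samples was computed, and signal over background limits the precision.

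The members, the 32 other pathway genes, the response genes and the marker lists were chosen with earlier results of these data known. Some genes of the lists are not reported here and were left out of every count over a list. Named genes were all members with all probes, members of these lists, and for Shh, Ptch1 and Gli1 the 3 genes nearest in course, which are left out for Shh because 4 of its values were not well above background. Alternatives were another scaling or none, normexp background correction with an offset of 50, the deposited log2 table, no filter on dim probes or a stricter one that asks for both arrays to be well above background, the mean over probes, quantile normalization without Day2, and thresholds of 1.5-fold and 4-fold.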

Additional observations from a re-analysis of the deposited data

How the results depend on the processing

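No paired analysis was possible because 1 array was made per time point. For the same reason no replicate could be left out, and slide could not be fitted as a block because Day7 alone was on its slide. No called change of a member turned its direction under any alternative, but none of these used a member's other probe alone. By their second probes, Gas1 changed by -0.99 from ES to Day7 and Smo by -0.25 from ES to Day3, both called raised by the brightest probe. Of the counts recomputed, 151 stayed within 1.5 times their value and 45 did not, and the cause was not tested. At 1.5-fold, members raised on Day2 were 2, other pathway genes raised were 5 on Day2 and 14 each on Day3 and Day4, and those lowered were 4 on Day3 and 4 on Day4. At 4-fold, members raised were 0, 1, 2 and 1 on Day2 to Day7, and those lowered on Day7 were 0. Other pathway genes raised at 4-fold were 1, 1, 2 and 6 from Day2 to Day7 and 2 from Day4 to Day7, and those lowered were 1, 0, 0, 3 and 0. With the 75th percentile shift, and equally with the deposited table, members raised on Day2 were 2 and other genes lowered were 1 on Day2 and 2 on Day3. With only probes that passed the background limit on each array, members raised from Day4 to Day7 were 0, since Shh then had no value, and with the mean over probes members raised on Day2 were 0. Without normalization, members raised were 3 on Day2, 3 on Day3 and 4 on Day4, other genes raised were 5, 3 and 2 on those days and 17 from Day4 to Day7, and other genes lowered were 1, 4, 9 and 0. With normexp, members raised were 0 on Day2 and 2 on Day7, other genes on Day2 were 1 raised and 1 lowered, and those lowered from Day4 to Day7 were 7. The median of all genes shifted, without normalization, by 0.27 to Day2, -0.63 to Day3, -1.07 to Day4 and 1.06 from Day4 to Day7, and with the 75th percentile by -0.12, -0.11, -0.35 and -0.25 to Day3, Day4, Day7 and from Day4 to Day7. The share of raised among called genes was 48.7%, 60.3%, 54.1%, 50.4% and 49.9% in the 5 comparisons, in the order given in the report. Without normalization it was 85.4%, 17.9%, 9.53%, 54.7% and 94.0%, and with the 75th percentile 74.9% on Day2 and 48.0% on Day3. It lay between 50.8% and 56.2% with normexp, between 45.3% and 57.1% at 1.5-fold and between 55.8% and 66.8% at 4-fold. The share of all genes that was raised or lowered was worked out for the main setting only. Counts under the other settings therefore have no such share beside them and follow the shift of the arrays too.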
